A study of Gallus gallus with 12 samples.

Results

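Whole lung of the white leghorn chick at embryonic day (E)18 was set against whole lung at E16, over 3 arrays at E18 and 3 at E16, which are 6 of the 12 arrays of the series. The arrays were chosen by the stage in their labels, and the remaining 6 come from E14 and E15, with 3 at each stage. All embryos were untreated, came from fertilized eggs of 1 supplier and were staged by day of incubation, and each array carried biotin-labelled material made from the total RNA of a sample. The labels call the arrays of a stage biological replicates but do not say whether a sample was 1 embryo or a pool, so p-values measure the spread between these samples.

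In the bird lung, gas is exchanged in air capillaries that branch from the walls of the parabronchi and interlace with blood capillaries. Air capillaries grow out from small chambers, the atria and infundibula, in the last part of incubation, while the tissue between epithelium and endothelium thins into the blood-gas barrier. The barrier is formed before hatching, and air and blood capillaries spread through the lung between E16 and E18. The question addressed was which transcripts differ between E18 and E16, and whether they go on in the direction taken from E14 to E16 or turn back.

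Expression was measured for 21390 transcripts on a custom NimbleGen array, and each value is a log2 signal after Robust Multi-array Analysis, which equalizes the distribution of probe signals over arrays. A difference of 1 log2 unit is a 2-fold change of that signal. The transcripts carry Ensembl identifiers without gene names, and 0 of them could be paired with a symbol in the sources used here. Genes, pathways and cell types are therefore not named, the whole-lung label could not be checked against marker genes, and no sequence is shown. Transcripts of the same gene could not be recognized either, so counts of transcripts are not counts of genes. In whole tissue, fewer cells of a type and less RNA per cell cannot be told apart.

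The 3 arrays at E18 were unlike each other. Across transcripts, which are not independent replicates, E18 replicate 1 correlated at 0.958 to 0.983 with the 3 arrays at E16, but at only 0.899 with E18 replicate 2 and 0.741 with E18 replicate 3. E18 replicate 2 correlated at 0.951 with E15 replicate 3 and at 0.937 with E16 replicate 1, above its 0.909 with E18 replicate 3. E18 replicate 3 correlated at 0.863 with E15 replicate 3 and at 0.801 with E16 replicate 1. The 3 arrays at E16 correlated with each other at 0.960 to 0.974. The SD of the log2 values of an array was 2.58, 2.38 and 2.22 on E18 replicates 1, 2 and 3, against 2.51, 2.61 and 2.59 on E16 replicates 1, 2 and 3. The median SD of a transcript among replicates was 0.528 at E18 and 0.168 at E16, and it exceeded 1 log2 unit for 24.1% of transcripts at E18 and for 3.96% at E16. Each result below thus rests on 3 E18 arrays that differ widely, and is given with and without single arrays where these decide it.

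Between E18 and E16, 70 transcripts passed an adjusted p of 0.05, which is 0.327% of the transcripts tested. Of these, 44 rose (0.206% of all) and 26 fell (0.122% of all) at E18. The test was a limma contrast in a fit of a mean per stage to all 12 arrays, with Benjamini-Hochberg adjustment over all transcripts, and 5788 passed 0.05 without adjustment (27.1% of all). The rises had a median of 1.57 log2 units (2.97-fold) and ran between 0.81 and 3.52, or 1.75-fold and 11.5-fold. The falls had a median of -1.61 and ran between -2.74 and -0.91. A change of at least 2 log2 units was reached by 9 rising and 7 falling transcripts of the 70.

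All 70 lay above the control of random sequence, which read between 4.40 and 5.17 over the arrays of the series. Their lowest value on any E18 or E16 array was 6.98 and their highest was 15.18. The rising transcripts had a median level of 11.27 at E18, against 9.61 at E16. The falling ones had a median level of 9.37 at E18, against 11.09 at E16. The 70 were also tight at E18. The median SD over the 3 E18 arrays was 0.215 for the rising and 0.348 for the falling transcripts, where it was 0.528 over all transcripts. A small spread is part of what the test selects. At E16 they were not tight, with a median SD of 0.271 for the rising and 0.351 for the falling, against 0.168 over all transcripts.

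The count depended on the arrays that supply the spread and on single arrays. In a fit of only the arrays of E18 and E16 limma called 0 transcripts, with 2046 at an unadjusted p under 0.05. With array weights estimated by stage, which gave the E18 arrays the lowest weight, it called 0 as well, with 3105 unadjusted. The smallest adjusted p was 0.357 in the first of these fits and 0.301 in the second. The fit of all 12 arrays shares 1 spread per transcript over the stages. Over all transcripts the median SD was smaller at E14, E15 and E16 (0.140, 0.216 and 0.168) than at E18 (0.528). Among the 70 the median SD was no larger at E18 than at E16, for the rising (0.215 and 0.271) and the falling transcripts (0.348 and 0.351). The 70 were called by that fit, which selects a small spread, so these values cannot show that 1 shared spread suits E18. Without E18 replicate 1 the number was 9523, and it was 6 without E18 replicate 2. It was 3 without E16 replicate 2 and 7 without E16 replicate 3. Leaving out an E14 array gave 26 to 33, and leaving out E15 replicate 1 or 2 gave 30 and 35. It was 54 without E18 replicate 3, 70 without E16 replicate 1 and 68 without E15 replicate 3.

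**Figure D1:**
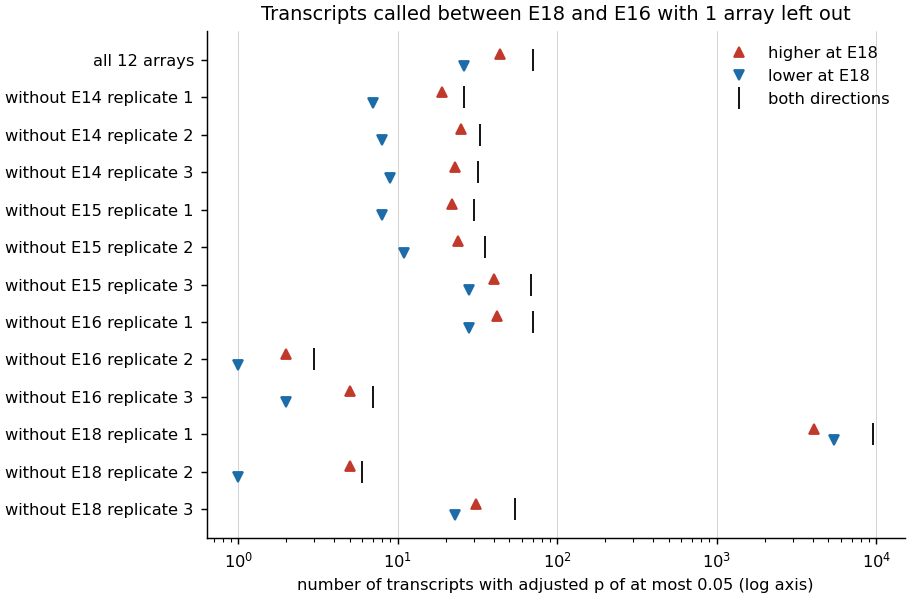
Number of transcripts with an adjusted p of at most 0.05 between E18 and E16 (log axis), with all 12 arrays and with each array left out in turn. Red triangles are transcripts higher at E18, blue triangles those lower, and black ticks both together. The total is 70 with all arrays, 9523 without E18 replicate 1, and 3 to 7 without E16 replicate 2 or 3 or E18 replicate 2.

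Transcripts are described by identifier for 4 of the 70. Of the transcripts that rose at E18, and of those that fell, 1 that went on in the direction of the earlier change and 1 that went against it were taken, each with the smallest limma p of its kind. Those whose E16 and E14 arrays overlapped, among them the transcript with the smallest p of all (adjusted p = 0.00146 by limma) and the widest gap, are described as a group. ENSGALT00000005253 rose after E16 and was higher at E16 than at E14. It read 13.63, 13.60 and 13.54 on the 3 arrays at E18, against 11.47, 11.28 and 10.48 on those at E16. The E18 arrays agreed to within 0.1 log2 units and every one lay above all E16 arrays. The difference was 2.51 log2 units (standard error 0.28, adjusted p = 0.0129 by limma), or 5.69-fold. The mean was 9.23 ± 0.26 at E14, 9.85 ± 0.38 at E15, 11.08 ± 0.52 at E16 and 13.59 ± 0.05 at E18 (SD, n = 3 each), so that each stage stood above the one before. The earlier difference, E16 minus E14, was 1.84 log2 units and narrowly missed the threshold in the same fit (adjusted p = 0.0523 by limma).

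ENSGALT00000001803 fell after E16 and was lower at E16 than at E14. It read 8.44, 7.86 and 7.60 on the arrays at E18, against 10.34, 10.65 and 11.13 on those at E16. The groups were parted by 1.91 log2 units, and the difference was -2.74 (standard error 0.28, adjusted p = 0.0106 by limma), a level 6.69-fold lower at E18. E16 minus E14 was -0.93 log2 units without overlap of the arrays, where the test gave an adjusted p of 0.326 by limma.

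ENSGALT00000025981 turned round. It read 10.49, 9.93 and 11.02 on the arrays at E18, against 8.58, 8.57 and 8.71 on those at E16, a difference of 1.86 log2 units (standard error 0.24, adjusted p = 0.0174 by limma). The E16 arrays in turn lay below all E14 arrays, with a mean of 8.62 ± 0.08 at E16 and 9.41 ± 0.07 at E14 (SD, n = 3 each). That earlier difference did not pass the threshold (adjusted p = 0.326 by limma). The later rise was larger than the earlier difference, and the E18 mean was 1.07 above that of E14.

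ENSGALT00000015781 turned round in the opposite sense, again in the order of its arrays. Its values at E18 were 9.91, 10.23 and 10.09, against 11.38, 11.49 and 11.55 at E16, a difference of -1.39 log2 units (standard error 0.13, adjusted p = 0.00937 by limma). At E16 it had a mean of 11.47 ± 0.09, against 11.13 ± 0.14 at E14 (SD, n = 3 each), and all E16 arrays lay above all E14 arrays. The difference between E16 and E14 did not pass the threshold here either (adjusted p = 0.557 by limma). E18 minus E14 was -1.06 log2 units. For each of the 4 transcripts an exact permutation test of 3 arrays at E18 against 3 at E16 cannot fall below a two-sided p of 0.1. It gave that value each time, which the choice of the 4 among transcripts without overlap fixed beforehand. Without E16 replicate 2 none of the 4 passed 0.05 in limma (adjusted p between 0.0502 and 0.0842), although the direction was kept. Without E18 replicate 2 the adjusted p by limma was 0.0594 for ENSGALT00000005253 and 0.0510 for ENSGALT00000001803, and without E16 replicate 3 it was 0.101 for ENSGALT00000025981.

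**Figure D2:**
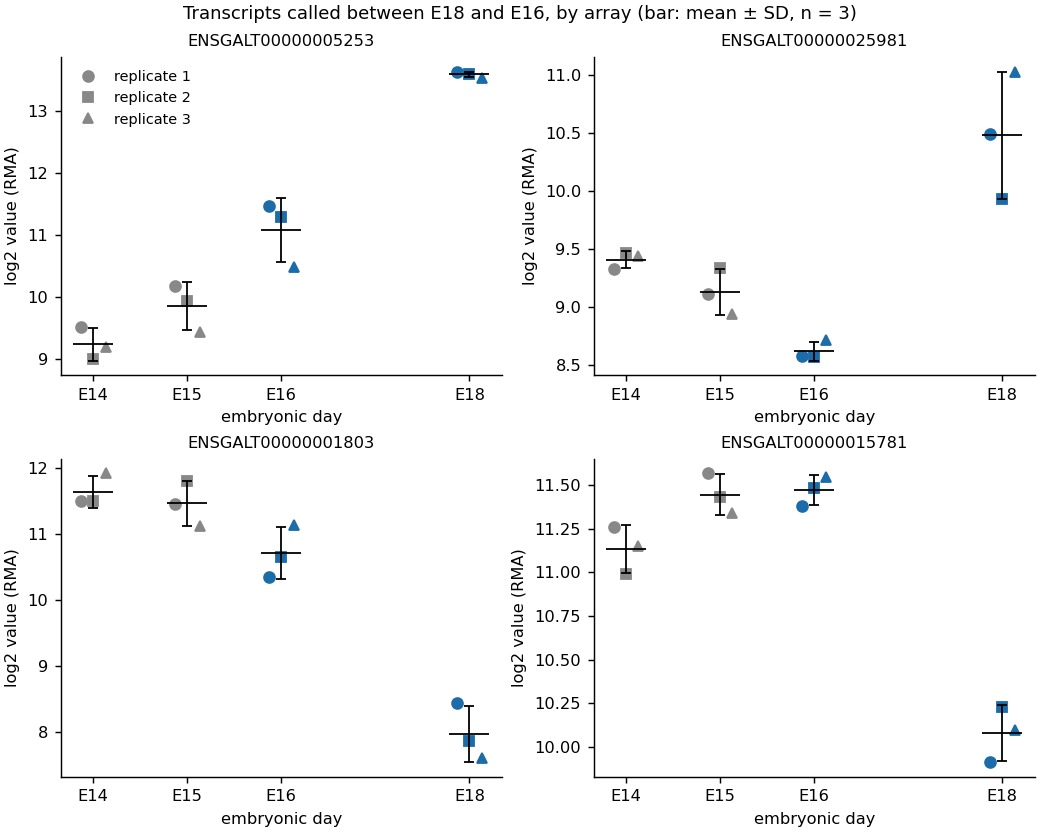
Log2 values of the 4 transcripts described by identifier on each of the 12 arrays, by embryonic day, with E16 and E18 in blue and E14 and E15 in grey. Horizontal bars are means and error bars are SD (n = 3 at each stage). ENSGALT00000005253 and ENSGALT00000001803 moved the same way before and after E16, while ENSGALT00000025981 and ENSGALT00000015781 lay on opposite sides of E14 at E16 and at E18.

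A wider set of transcripts parted the stages with no test. All 3 arrays at E18 lay above all 3 at E16 for 1523 transcripts (7.12% of all), and below them for 3515 (16.4%), which makes 5038 together (23.6%). Transcripts share arrays, so their counts are not independent. The total was 13704 without E18 replicate 1 and 8028 without E16 replicate 1, where fewer arrays also overlap less by construction. Most gaps were small. The median gap between the nearest E18 and E16 arrays was 0.12 log2 units, and it was under 0.1 for 42.2% of the 5038. A gap of at least 1 log2 unit was found for 58 transcripts (0.271% of all), 40 of them higher (0.187%) and 18 lower (0.0842%) at E18, and a gap of at least 2 for 2. The largest gap was 2.19 among transcripts higher and 1.92 among those lower at E18. All of the 70 transcripts called by limma were among the 5038, with gaps of 0.59 or more, and 36 of the 58 with the wide gap were called.

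The split between higher and lower depended on the scale. The median of E18 minus E16 over all transcripts was -0.138 log2 units as deposited, and 69.8% of the parted transcripts were lower at E18. After cyclic loess normalization, where that median was 0.011, 2578 transcripts were parted upwards and 2282 downwards. The limma calls were 178 higher and 66 lower in that setting, and 63 of the 70 were among them.

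The E18 arrays contributed unequally to the parted set. Among transcripts higher at E18, the median distance from the E16 mean was 0.46 log2 units on E18 replicate 1, 0.73 on replicate 2 and 1.26 on replicate 3. Among those lower at E18 it was -0.25 on replicate 1, -0.47 on replicate 2 and -0.94 on replicate 3. E18 replicate 1 was the nearest of the 3 to E16 for 61.4% of the transcripts parted upwards and 74.7% of those parted downwards. Over all transcripts it was nearest for 64.9%.

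The 70 called transcripts differed from this pattern in size, in that the 3 E18 arrays stood at like median distances from E16. The median distance of the rising transcripts was 1.56 on E18 replicate 1, 1.46 on replicate 2 and 1.59 on replicate 3. That of the falling ones was -1.50, -1.67 and -1.77 in the same order, so the falling transcripts kept the ranking of the arrays. E18 replicate 1 was the nearest of the 3 to E16 for 29.5% of the rising and 57.7% of the falling transcripts. E18 replicate 1 was at least 1 log2 unit from the E16 mean for 90.9% of the rising and 80.8% of the falling transcripts, and for 4% of all transcripts. Equal distances are also what a test on the mean and spread of the E18 arrays selects, so these values describe the called set and test nothing.

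**Figure D3:**
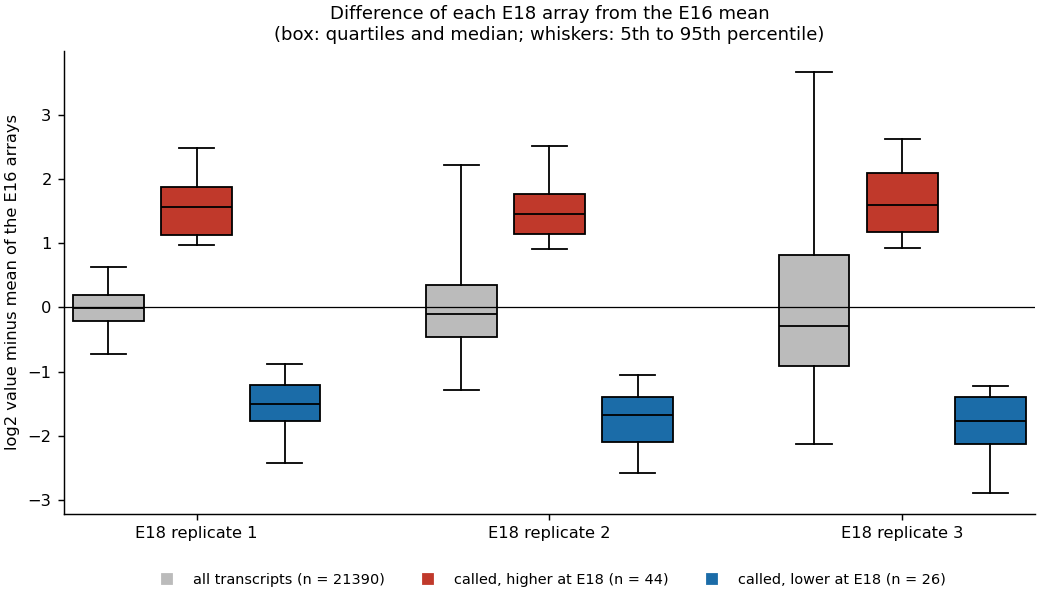
Log2 value of each E18 array minus the mean of the 3 E16 arrays, for all transcripts (grey), the 44 called higher (red) and the 26 called lower at E18 (blue). Boxes show quartiles and median, whiskers the 5th to 95th percentile. The grey boxes widen from E18 replicate 1 to replicates 2 and 3, while the medians of the called transcripts lie between 1.46 and 1.59 and between -1.77 and -1.50 on the 3 arrays.

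Of the 21390 transcripts, 103 were at least 1 log2 unit above the E16 mean on all 3 E18 arrays and 65 at least 1 below it. With only E18 replicates 2 and 3 considered, 3014 were at least 1 above and 1471 at least 1 below. A condition on fewer arrays is met more often by construction, and other pairs of E18 arrays were not counted. The share of transcripts at least 1 log2 unit from the E16 mean was 4%, 24% and 45.7% on E18 replicates 1, 2 and 3. A size of 2 log2 units was passed upwards by 7 transcripts on all 3 arrays and by 1322 on replicates 2 and 3. Of the 987 transcripts whose mean difference was at least 2 log2 units in size, 953 of them higher at E18, 16 were called.

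Without E18 replicate 1, limma called 9523 transcripts (44.5% of all), 4051 higher and 5472 lower at E18, and all 70 were among them. The array left out lay nearer to the E16 mean than to the mean of the remaining E18 arrays for 91.3% of these 9523. Taken in the direction of the call, its median distance from the E16 mean was 0.05 log2 units, where the remaining pair had a median of 1.32. It was on the same side of the E16 mean as the remaining pair for 57.3%. The 9523 were selected with that pair alone, which favours transcripts where the pair lies far from E16. These values thus describe the called set and test nothing. Whether E18 replicate 1, or replicates 2 and 3, stand for the stage cannot be told from 3 arrays.

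The difference between E18 and E16 also moved with the level of the transcript. Transcripts were divided into 3 classes of 7130, dim, middle and bright, by their mean on the E14 and E15 arrays, which enter neither side of the comparison. The median of E18 minus E16 was 0.66 log2 units in the dim, -0.38 in the middle and -0.21 in the bright class. On E18 replicate 1 these medians were all within 0.03 of 0. On replicate 2 they were 0.58, -0.33 and -0.12, and on replicate 3 they were 1.39, -0.74 and -0.46, in the order dim, middle and bright. Replicates 2 and 3 of E18 are the arrays with the narrowest spread of values in the series. The part of the narrow spread in the differences was not tested apart from the stage. With array SD as a covariate limma called 13 transcripts, 10 higher and 3 lower, of which 12 were among the 70. Since the narrowest arrays are both of E18, that count cannot tell spread and stage apart.

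The called transcripts were unevenly spread over the levels. Of the 44 that rose, 20 were in the dim, 22 in the middle and 2 in the bright class. Of the 26 that fell, 0 were in the dim, 15 in the middle and 11 in the bright class. Of the 5038 parted transcripts, 851 were higher and 225 lower at E18 in the dim class, 427 higher and 1395 lower in the middle class, and 245 higher and 1895 lower in the bright class.

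**Figure D4:**
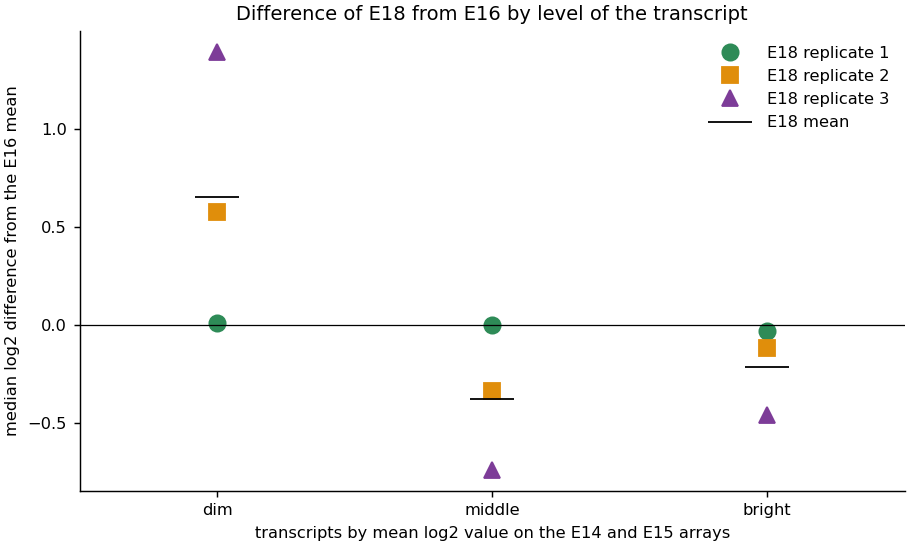
Median log2 difference from the E16 mean on each E18 array, and for the E18 mean, in 3 classes of transcripts by their mean value on the E14 and E15 arrays (7130 transcripts in each). E18 replicate 1 lies within 0.03 of 0 in every class, whereas replicate 3 reads 1.39 in the dim class, -0.74 in the middle and -0.46 in the bright class.

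Fewer transcripts passed the test over the 2 days before E16. In the same fit limma called 23 transcripts between E16 and E14 (0.108% of all), of which 21 rose (0.0982%) and 2 fell (0.00935%) at E16. The arrays of E16 and E14 did not overlap for 6558 transcripts (30.7% of all), which is more than the 5038 (23.6%) between E18 and E16. Calls and parted arrays thus rank the intervals in opposite order and do not settle which held more change. The 70 transcripts were sorted by whether they continued or reversed the change from E14 to E16. A transcript was taken to continue where its E16 arrays were parted from its E14 arrays in the direction of the later change. It was taken to reverse where they were parted in the opposite direction, and to have no parted change where E16 and E14 overlapped.

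Of the 70, 36 continued the earlier change, 6 reversed it and 28 had no parted change between E14 and E16. Among the 44 that rose, 21 continued, 3 reversed and 20 had no parted change. Among the 26 that fell, 15 continued, 3 reversed and 8 had none. The 36 that continued are 51.4% of the 70 and the 6 that reversed are 8.57%. Over all transcripts 21.7% continued and 8.99% reversed, whatever the size of their change. Both steps use the same E16 arrays, whose deviations enter them with opposite sign, so these counts describe the order of the stages and are not a test. They moved with the number called, but not with it alone. Without E18 replicate 1, 2517 continued and 633 reversed, while leaving out E16 replicate 2 gave counts of 1 and 1, leaving out E16 replicate 3 gave 3 and 2, and leaving out E18 replicate 2 gave 1 and 2. Without an E14 array, or without E15 replicate 1 or 2, 14 to 19 continued and 2 to 4 reversed. Without E16 replicate 1, where the number called was again 70, 38 continued and 13 reversed. Without E18 replicate 3, 28 continued and 3 reversed. With fewer arrays at E14 or E16, these stages also overlap less by construction.

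The 21 rising transcripts that continued had a median of 0.90 log2 units for E16 minus E14 and of 1.61 for E18 minus E16. The 15 falling ones had medians of -0.96 and -1.60. The later step was the larger for 19 of these 21 and for 15 of the 15, and the 70 were selected on that later step. Between E18 and E14 the rising transcripts that continued differed by 1.42 to 4.46 log2 units and the falling ones by -4.85 to -1.27. Of the 70, 4 were also called between E16 and E14, of which 3 rose and 1 fell at both steps.

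For the 28 without a parted change, overlap of 3 arrays with 3 does not show that the level was unchanged between E14 and E16. Their median for E16 minus E14 was 0.06 log2 units for the 20 that then rose and -0.24 for the 8 that then fell, with a range over the 28 of -0.53 to 0.72. The later difference had a median of 1.34 for the 20 and of -1.65 for the 8.

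The 6 that reversed did so by the order of their arrays, and E16 minus E14 passed the threshold in none of them (adjusted p between 0.318 and 0.852 by limma). None of the 6 went back only to its E14 level. For the 3 that rose at E18, E16 minus E14 lay between -0.79 and -0.53 log2 units and E18 minus E14 between 1.07 and 1.44. For the 3 that fell, E16 minus E14 lay between 0.34 and 0.98 and E18 minus E14 between -1.19 and -0.90. In each of the 6 the arrays of E18 and E14 did not overlap, and the same held for the remaining 64 of the 70, all on the side of the later change. The 70 were selected for a large later change with a small spread, which favours both of these outcomes. The share over all transcripts is not given for either outcome. The 6 are 8.57% of the 70, where 8.99% of all transcripts reversed. These values thus describe the called set and test nothing.

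**Figure D5:**
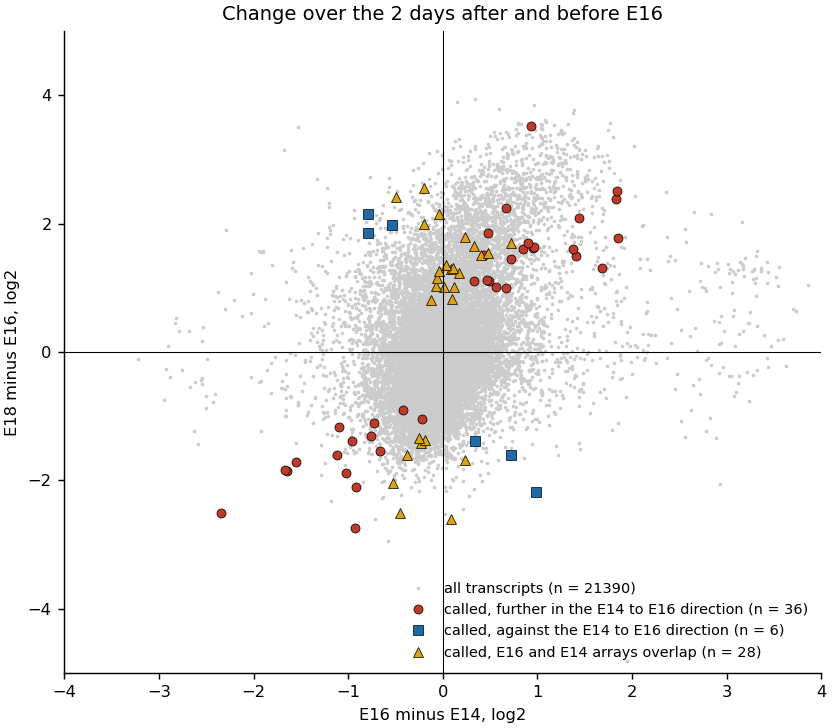
Log2 difference E18 minus E16 (vertical) against E16 minus E14 (horizontal), each over 2 days. Grey points are all 21390 transcripts, 3 of them beyond the axes, and symbols are the 70 called between E18 and E16, divided into 36 that continued the earlier change (red circles), 6 that reversed it (blue squares) and 28 whose E16 and E14 arrays overlapped (yellow triangles). The axes share the E16 arrays, and the 6 that reversed lie between -0.79 and 0.98 on the horizontal axis.

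Whether the change differed between the intervals before and after E16 was tested directly, since both last 2 days. The limma contrast of E18 minus E16 against E16 minus E14 called 0 transcripts, with 825 at an unadjusted p under 0.05 (3.86% of all), and the smallest adjusted p was 0.110. No count of this contrast is given by class for the 70, since it is the difference of the values that chose them and set their classes. That the 36 went on at an unchanged pace does not follow from a missed threshold. Without E18 replicate 1 the contrast called 17 transcripts, 11 with a positive and 6 with a negative difference.

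The wider set of 5038 parted transcripts was ordered in a like manner. Of the 1523 higher at E18, 357 continued (23.4%), 132 reversed (8.67%) and 1034 had no parted change. Of the 3515 lower at E18, 1258 continued (35.8%), 201 reversed (5.72%) and 2056 had none. Of all transcripts with a positive difference at E18, 16.7% continued and 10.1% reversed, and of all with a negative one 24.9% continued and 8.28% reversed. For the 58 with a gap of at least 1 log2 unit, 26 continued, 5 reversed and 27 had no parted change.

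The step from E14 to E15 shares no array with the comparison of E18 and E16. Of the 44 transcripts that rose at E18, 30 had a higher mean at E15 than at E14 (68.2%). Among all transcripts with a positive difference at E18 the share was 66.5%. Of the 26 that fell at E18, 17 had a lower mean at E15 than at E14 (65.4%), where 72.3% of all transcripts with a negative difference did. With all arrays the shares of the called transcripts were close to those of all transcripts with the same sign. This closeness depended on E15 replicate 3, whose SD of 2.44 is below that of the other E14 and E15 arrays. Without it the shares over all transcripts were 53.3% for the positive and 53.9% for the negative differences. Those of the called transcripts were then 68.2% and 61.5%. Among the parted transcripts the shares were 59.9% for those higher and 60.1% for those lower at E18, also without that array.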

How the data were processed

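RNA of whole chick lung was measured on 12 one-colour NimbleGen arrays, 3 at each of 4 stages. The deposited table holds 1 log2 value for each transcript on each array, made by the authors from the scans with Robust Multi-array Analysis. Analysis software is named as DNASTAR ArrayStar, and its version, the Ensembl release and the probes per transcript are not given in the sources used here. The control of random sequence was left out of all tests.

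A mean per stage was fitted to the deposited values of 21390 transcripts in R 4.3.3 with limma 3.58.1, which leaves 8 residual degrees of freedom. Contrasts were E18 minus E16, E16 minus E14 and the difference of both, with Benjamini-Hochberg adjustment and a threshold of 0.05. No normalization or filter on dim transcripts was added. The fit was tested on simulated data whose spread was the same at every stage, whereas the measured spread was larger at E18. That test therefore does not cover the unequal spread. Plots were made in Python 3.11.15 with matplotlib 3.10.9.

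Identifiers were named by a rule: the smallest limma p for E18 minus E16 among called transcripts with no overlap, 1 for each direction that continued and 1 for each that reversed. Marker lists were written for a match by gene symbol and could not be applied, since 0 transcripts were paired with one. The comparison, lists and alternatives were chosen with earlier results of these data known. Alternatives changed the scale of the arrays (cyclic loess, quantiles or medians), the variance model (a trend on intensity with robust estimation, or weights per stage) and the transcripts (the dimmest left out), or added array SD as a covariate, the replicate number as a block, only the 2 stages compared, each array left out, other thresholds and the methods' one-way ANOVA over the stages. The number of arrays limits the precision.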

Additional observations from a re-analysis of the deposited data

How the results depend on the processing

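The number of transcripts called between E18 and E16, 70, was 84 after median centring, 81 after quantile normalization and 96 with an intensity trend and robust variances. It was 244 after cyclic loess, 149 without the dimmest transcripts, 13 with array SD as a covariate and 0 with array weights by stage. It was 0 with only the arrays of E18 and E16, 4 at an adjusted p of at most 0.01 by limma and 5788 without adjustment. The methods' one-way ANOVA passed 892, of which 69 were among the 70. It tests for any difference among the 4 stages and not for E18 against E16, so its count is of another kind. The calls were 66 higher and 83 lower without the dimmest transcripts, and 45 higher and 51 lower with the trend. With 1 array left out the number called between E18 and E16 ran from 3 to 9523.

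The number of transcripts whose E18 and E16 arrays did not overlap, 5038, was between 3965 and 4884 under 4 settings that change the scale or the filter, 58 with a gap of at least 1 log2 unit, and 6142 to 13704 with 1 array left out. Fewer arrays overlap less by construction. Upwards and downwards were 1959 and 2859 after median centring, and 733 and 3232 without the dimmest transcripts.

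Of the transcripts called, the number that continued the change from E14 to E16, 36, was 126 after cyclic loess, 68 without the dimmest transcripts, 0 with array weights by stage, 4 with array SD as a covariate and 1 to 2517 with 1 array left out. The number that reversed it, 6, was 13, 16, 0 and 2 in the same settings and 1 to 633 with 1 array left out. More continued than reversed in the settings run for these counts that keep all arrays and call any. These counts were not run at other thresholds or for the one-way ANOVA. With 1 array left out the numbers were 1 and 1 without E16 replicate 2, and 1 and 2 without E18 replicate 2.

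The contrast between the later and the earlier change, with 0 calls, gave 1 after median centring, 1 after quantile normalization and 1 without the dimmest transcripts, each time the transcript with the smallest limma p between E18 and E16, and 0 to 17 with 1 array left out.

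With the replicate number as a block, the number called was 15, of which 7 continued and 1 reversed. No label ties same-numbered arrays. Deviations of such E18 and E16 arrays from stage means correlated at -0.50, -0.39 and -0.08. These constrain each other and cannot test pairing.

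The 4 transcripts described by identifier kept their direction in every setting run. Their adjusted p by limma exceeded 0.05 with array weights (0.301 to 0.343) and with only the arrays of E18 and E16 (0.394), and for ENSGALT00000025981 with array SD as a covariate (0.0678) and with the replicate block (0.0674). For ENSGALT00000015781 it was 0.0680 after cyclic loess, where the difference was -0.98. The cause of these changes was not tested. Dim transcripts had the widest spread at E18, with a median SD of 0.927 in the dim class and 0.265 in the bright class.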
